A study of Rattus norvegicus with 6 samples.

Results

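The 10 genes of the calcineurin pathway described here were measured in the gastrocnemius, a mixed hindlimb muscle, of 6 male Sprague Dawley rats (strain Crl:SD). They are the genes with the symbols Ppp3ca, Ppp3cb, Ppp3r1, Nfatc1, Nfatc2, Nfatc3, Nfatc4, Rcan1, Rcan2 and Rcan3, 10 of the 26406 genes in the deposited table, and each symbol had 1 row. They were chosen by symbol with earlier results of these data in view, and no measured value was needed, since the mean over the 6 rats would have decided only between several rows of a symbol. They were compared between the groups as a readout of the calcineurin drive of slow fibers. The 3 vehicle rats (rats 3, 9 and 11) and the 3 olanzapine rats (rats 4, 10 and 12) all carried venous catheters. Olanzapine, an antipsychotic drug, was infused as a loading dose of 1 mg per 100 g lasting 0.5 h, followed for 23.5 h by 0.04 mg per 100 g each hour, and vehicle was given by the same pump schedule. The rats weighed 356 to 382 g in the vehicle group and 366 to 400 g in the olanzapine group. Levels are FPKM, read levels scaled to transcript length and to the mapped reads of a library, from poly(A) RNA, so they are per length and can be set side by side between genes.

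Calcineurin is a calcium-activated phosphatase made of a catalytic A subunit (Ppp3ca, Ppp3cb or Ppp3cc) and a calcium-binding regulatory B subunit (Ppp3r1), and it is switched on by calcium-bound calmodulin. It removes phosphates from the NFATc transcription factors, which then move to the nucleus, and in muscle this route is known for maintaining the slow fiber program under tonic nerve activity. The Rcan proteins bind calcineurin and restrain it. In mouse and human, a short Rcan1 transcript from an internal start is itself induced by calcineurin and NFAT and is widely used as a reporter of the pathway. Phosphatase activity and NFAT location were not measured, so the levels below are of messenger RNA only.

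In the olanzapine rats Rcan1 fell to 39.8% of its vehicle mean, and Rcan2 stood at 42.3% of its vehicle mean without passing the test. The calcineurin subunits and the NFATc factors were not called in either direction. Of the 9 members that could be tested, limma called 1 lower (Rcan1) and 0 higher at an adjusted p under 0.05, whereas 0.457% of the 10285 tested genes fell and 0.0486% rose. At an unadjusted p under 0.05 from the same limma fit, 2 members were lower (Rcan1 and Rcan2) and 0 were higher, beside 9.45% and 3.79% of all tested genes. The groups did not overlap for 4 members, lower for Rcan1, Rcan2 and Nfatc3 and higher for Ppp3r1, beside 14.6% of all tested genes lower without overlap and 5.12% higher. The median log2 fold change (olanzapine minus vehicle, of FPKM + 1) of the 9 members was -0.30, and that of all tested genes was -0.11. After median-ratio size factor scaling these medians were -0.15 and 0.03, so small differences below are read against that shift. When only genes averaging 10 FPKM or more were tested, 5 members and no NFATc factor were left. Their median was -0.11, beside -0.008 for all genes tested in that fit. Without olanzapine rat 12 the medians were -0.17 for the members and -0.08 for all tested genes.

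**Figure D1:**
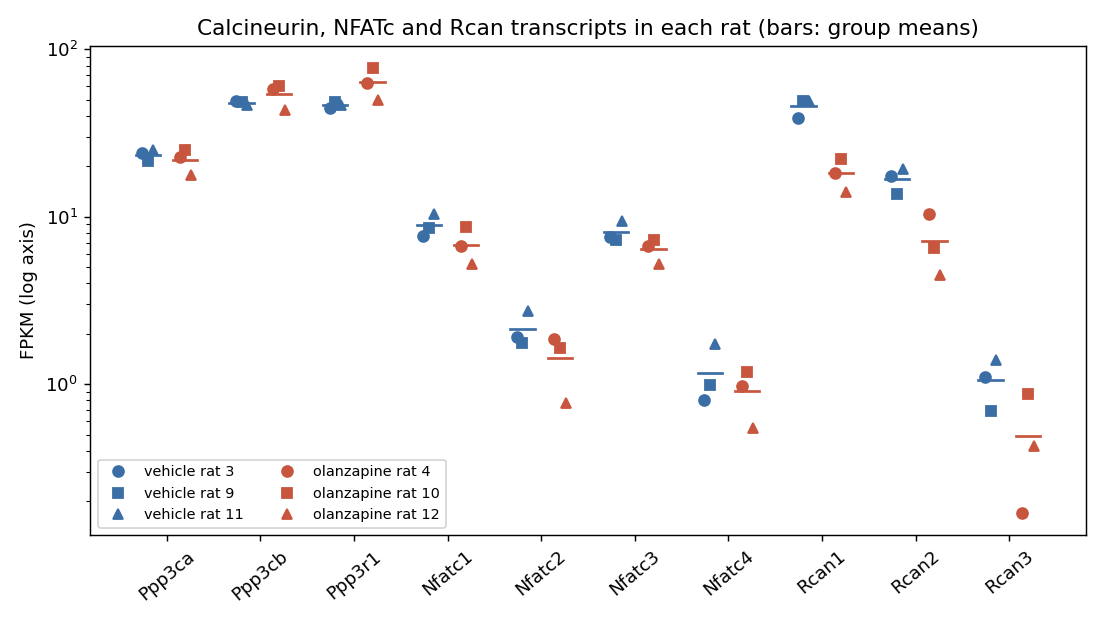
FPKM of the 10 genes in each rat on a log axis, with vehicle rats in blue, olanzapine rats in orange and bars at the group means. The 3 olanzapine rats lie below the 3 vehicle rats for Rcan1, Rcan2 and Nfatc3 and above them for Ppp3r1, and the groups overlap for the other 6 genes.

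The libraries and tissue were checked before the members were compared. Relative depth, read from the steps between the lowest values, lay between 0.444 and 1 of that of vehicle rat 3 and was lowest in vehicle rat 11. Vehicle rat 11 had the highest FPKM of all rats for 7 of the 10 members, among them Nfatc1 to Nfatc4, and olanzapine rat 12 had the lowest for 8, and the part of depth in this was not tested. The tissue label was checked against 5 fiber markers found in the table (Acta1, Ckm, Mylpf, Myh1 and Myh4), which summed to 70173 to 91244 FPKM in the vehicle rats and 90754 to 122892 FPKM in the olanzapine rats. Within this sum Mylpf was higher and Myh1 lower in every olanzapine rat than in every vehicle rat, and the other fiber markers overlapped. Of these markers Myh4, the myosin of fast IIb fibers, varied most within the vehicle group, with a coefficient of variation of 64.4%. Rat 3 had 425 FPKM of it, against 2341 for rat 9 and 2168 for rat 11. The slow fiber genes Myl2 (18062 FPKM) and Mb (17244 FPKM) peaked in rat 3, whereas Casq2 (71.4 FPKM) peaked in vehicle rat 11. Whether fiber make-up differed among the vehicle rats was not tested. Calcineurin and NFAT are also prominent in T lymphocytes. The 6 markers of those cells summed to 0.379 to 1.26 FPKM in the vehicle rats and 0.335 to 1.57 FPKM in the olanzapine rats. Among them Cd3d and Cd5 were listed at 0 in every rat. A listed 0 need not mean absence. The fibroblast marker Col1a2 was also at 0 in every rat, while the fibroblast marker Col1a1 averaged 244 FPKM over the 6 rats. The 6 endothelial markers summed to 87.1 to 102.4 and 70.1 to 106.4 FPKM, with Kdr alone lower without overlap, and 6 satellite cell markers to 9.79 to 11.0 and 8.12 to 10.5 FPKM. The tissue was not uniform between rats. Erythrocyte markers summed to 944 to 7837 FPKM with vehicle and 2744 to 5992 FPKM with olanzapine. Adipoq, an adipocyte marker, was at 25.5 FPKM in vehicle rat 9 and 36.6 FPKM in olanzapine rat 4, and at 0.908 to 2.26 FPKM in the other rats. In a bulk sample, fewer cells of a type and less RNA per cell cannot be told apart.

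Rcan1, the regulator of calcineurin that is itself used as its reporter, is placed on chromosome 11 (chr11:36145269-36155595, assembly Rnor_5.0). Its sequence before the start is shown first because the gene carried the only call among the members. The sequences below are the 250 bases before the annotated start in RefSeq (assembly GRCr8), available for 7 of the 10 members and not for Nfatc1, Nfatc3 and Nfatc4. Each of the 3 printed windows, like 6 of the 7 available, lies inside the span that RefSeq annotates for its gene, so another annotated transcript reaches further upstream. Capitals mark GGAAA (the core bound by NFAT), TGACTCA (the site of AP-1, a common partner of NFAT), TGACGTCA (the cyclic AMP response element) and TATAAA (the TATA box), searched on both strands.
Rcan1 (chr11:45118237-45118486, minus strand): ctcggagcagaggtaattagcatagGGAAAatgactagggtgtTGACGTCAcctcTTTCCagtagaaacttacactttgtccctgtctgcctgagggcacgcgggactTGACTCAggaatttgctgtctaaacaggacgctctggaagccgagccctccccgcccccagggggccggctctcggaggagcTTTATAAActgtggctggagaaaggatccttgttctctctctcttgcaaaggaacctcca
Rcan2 (chr9:24672190-24672439, minus strand): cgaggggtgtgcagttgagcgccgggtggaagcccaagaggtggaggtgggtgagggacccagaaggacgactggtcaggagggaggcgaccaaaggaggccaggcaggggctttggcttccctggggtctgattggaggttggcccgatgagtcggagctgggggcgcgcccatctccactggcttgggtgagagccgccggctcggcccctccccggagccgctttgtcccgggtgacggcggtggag
Ppp3r1 (chr14:95769596-95769845, plus strand): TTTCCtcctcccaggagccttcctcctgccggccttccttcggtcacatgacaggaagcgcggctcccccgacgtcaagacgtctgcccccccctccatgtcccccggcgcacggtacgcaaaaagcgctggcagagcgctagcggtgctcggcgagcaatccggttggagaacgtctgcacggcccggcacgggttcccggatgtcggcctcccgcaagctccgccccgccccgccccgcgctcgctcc
Rcan2 and Ppp3r1 are shown beside Rcan1 because their groups also did not overlap.

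The Rcan1 window held GGAAA 2 times, starting 225 bases before the start on the plus strand of the gene and 195 bases before it on the other strand. It held TGACGTCA 207 bases before the start and TGACTCA 142 bases before it, and TATAAA on both strands in overlapping letters, 60 and 58 bases before the start. Of the 33469 promoter windows of the same length, 56.9% held GGAAA at least 1 time and 22.9% at least 2 times, 4.05% held TGACTCA, 1.59% held TGACGTCA and 12.9% held TATAAA. The Ppp3r1 window held GGAAA 1 time, on the other strand at its far end, 250 bases before the start, and the Rcan2 window held none of the 4 motifs. Among the windows not printed, Rcan3 held GGAAA 3 times and TATAAA 1 time, Ppp3cb held GGAAA 1 time, and Ppp3ca and Nfatc2 held none. A match of letters is a description of the window and not a site in use.

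Vehicle rats 3, 9 and 11 had 39.0, 49.1 and 49.4 FPKM of Rcan1, and olanzapine rats 4, 10 and 12 had 18.3, 22.2 and 14.1 FPKM. Every olanzapine rat was below every vehicle rat, and the gap between the groups was wider than the spread within either. The means were 45.8 ± 5.93 FPKM (SD, n = 3) with vehicle and 18.2 ± 4.03 FPKM (SD, n = 3) with olanzapine, 2.51-fold lower. On the log2 scale the change was -1.30 (standard error 0.20) with a 95% interval of -1.76 to -0.83 (limma, adjusted p = 0.0403). By p-value Rcan1 was gene 43 of 10285.

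The fall of Rcan1 lay close to the threshold. Without vehicle rat 3, 9 or 11 the adjusted p from limma was 0.0806, 0.101 or 0.129, and without olanzapine rat 4, 10 or 12 it was 0.0977, 0.0516 or 0.154, so the call was lost in each of these 6 fits, while the log2 fold change stayed between -1.44 and -1.14. Scaling by median-ratio size factors gave a log2 fold change of -1.13 (limma, adjusted p = 0.0960). The adjusted p from limma was 0.0874 with no filter and 0.0547 with no trend in the variance. With totals made equal over all genes or without the 50 most abundant it was 0.0616 or 0.0670. The call was kept with a pseudocount of 0.1 (limma, adjusted p = 0.0382). It was also kept when genes averaging under 10 FPKM were left out (limma, adjusted p = 0.0145). A likelihood ratio test that treats summed FPKM as counts, with no term for rats, gave an adjusted p of 9.83e-09. That test called 4% of all tested genes lower. The order of Rcan1 among the 10285 tested genes, which no scaling of a rat can alter, was 1517, 1112 and 1103 from the top in the vehicle rats and 2658, 2187 and 2965 in the olanzapine rats. The ranks of the groups therefore did not overlap either.

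Rcan2, a paralog known from brain, heart and muscle (chr9:18397066-18626606, Rnor_5.0), was at 17.4, 13.7 and 19.4 FPKM in the vehicle rats and at 10.4, 6.52 and 4.50 FPKM in the olanzapine rats. The groups did not overlap, but relative to its mean Rcan2 was spread more widely over the olanzapine rats than Rcan1, with a coefficient of variation of 41.7% beside 22.1%. The means were 16.8 ± 2.91 and 7.13 ± 2.98 FPKM (SD, n = 3 each), with a log2 fold change of -1.18, a standard error of 0.27 and a 95% interval of -1.81 to -0.56 (limma, adjusted p = 0.141). Its place among the tested genes was 2836, 3161 and 2521 in the vehicle rats and 3850, 4681 and 5546 in the olanzapine rats. With 1 rat left out the adjusted p from limma ran from 0.0592 to 0.423, and the test that treats summed FPKM as counts gave an adjusted p of 0.00474, a call that it made in the lower direction for 4% of all tested genes.

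Rcan3, the least abundant paralog (chr5:157542941-157551147, Rnor_5.0), was at 1.105, 0.693 and 1.39 FPKM in the vehicle rats and at 0.171, 0.879 and 0.426 FPKM in the olanzapine rats. The groups overlapped. Its mean over the 6 rats was 0.777 FPKM, just under the minimum of 1 FPKM for the test, while Nfatc4 at 1.04 FPKM was just above it. When every gene was tested Rcan3 had a log2 fold change of -0.48 (limma, adjusted p = 0.504).

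Rcan1 made up 71.8% ± 4.98 of the summed Rcan FPKM in the vehicle rats and 70.9% ± 6.39 in the olanzapine rats (SD, n = 3 each), and Rcan2 made up 26.5% ± 4.51 and 27.2% ± 7.58. The make-up of the family thus overlapped between the groups while its sum went from 57.5, 63.5 and 70.2 FPKM in the vehicle rats to 28.9, 29.6 and 19.1 FPKM with olanzapine.

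**Figure D2:**
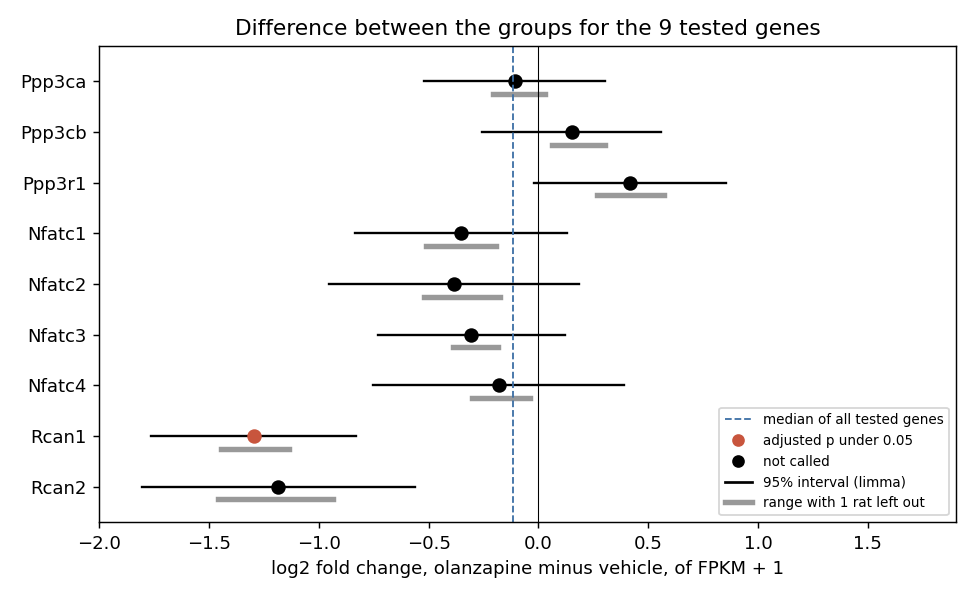
Log2 fold change (olanzapine minus vehicle, of FPKM + 1) of the 9 tested genes with its 95% interval from limma in black and the range of the fits with 1 rat left out in gray. The intervals of Rcan1 (-1.76 to -0.83) and Rcan2 (-1.81 to -0.56) lie below 0, those of the other 7 genes include 0, and the dashed line marks the median of all tested genes at -0.11.

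Ppp3ca, the calcineurin A alpha catalytic subunit (chr2:260462928-260735288, Rnor_5.0), was at 24.1, 21.5 and 25.04 FPKM in the vehicle rats and at 22.9, 25.1 and 17.8 FPKM in the olanzapine rats. The groups overlapped. The log2 fold change was -0.11 with a 95% interval of -0.52 to 0.30 (limma, adjusted p = 0.804), and its sign turned with size factors, to 0.06.

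Ppp3cb, the beta catalytic subunit (chr15:8293591-8338152, Rnor_5.0), was at 49.0, 48.4 and 46.6 FPKM in the vehicle rats and at 58.2, 60.6 and 43.3 FPKM in the olanzapine rats. Its vehicle values were the tightest of all members, with a coefficient of variation of 2.66%, and olanzapine rat 12 lay below them while the other 2 lay above. The log2 fold change was 0.15 with a 95% interval of -0.26 to 0.56 (limma, adjusted p = 0.709). After scaling by size factors all 3 olanzapine rats, at 55.8, 65.4 and 49.2, were above the 3 vehicle rats, at 45.6, 47.4 and 41.7.

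Ppp3r1, the calcium-binding B subunit (chr14:100178533-100227295, Rnor_5.0), was at 44.8, 48.6 and 46.2 FPKM in the vehicle rats and at 62.9, 77.1 and 50.0 FPKM in the olanzapine rats. Every olanzapine rat was above every vehicle rat, with rat 12 close to the vehicle range. The means were 46.5 ± 1.93 and 63.3 ± 13.6 FPKM (SD, n = 3 each), and the log2 difference was 0.42 (standard error 0.19) with a 95% interval of -0.02 to 0.85 (limma, adjusted p = 0.398). The place of Ppp3r1 among the tested genes was 1318, 1124 and 1190 in the vehicle rats and 938, 738 and 1193 in the olanzapine rats, so that by rank the groups overlapped through rat 12.

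The summed FPKM of the A subunits Ppp3ca, Ppp3cb and Ppp3cc overlapped between the groups, at 98.7, 87.0 and 90.8 in the vehicle rats and 101.0, 103.5 and 81.1 in the olanzapine rats. The third A subunit, Ppp3cc, was at 25.6, 17.1 and 19.2 FPKM with vehicle and 19.8, 17.9 and 20.0 FPKM with olanzapine (limma, log2 fold change -0.08, adjusted p = 0.864). Ppp3ca held 24.4, 24.7 and 27.6% of the sum in the vehicle rats and 22.7, 24.3 and 22.0% in the olanzapine rats, a shift in share of -2.59 percentage points without overlap, which was -1.58 without vehicle rat 11. B subunit FPKM over summed A subunit FPKM was 0.454, 0.558 and 0.509 in the vehicle rats and 0.623, 0.745 and 0.616 in the olanzapine rats. No test was run on shares and ratios, for which an exact permutation test of 3 rats against 3 cannot reach a p below 0.1.

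The order of the levels (FPKM, per length) was read within each group. In the vehicle rats Ppp3cb, Ppp3r1 and Rcan1 stood highest with overlapping ranges, and below them Ppp3ca and then Rcan2 each had a range apart from its neighbors. Nfatc1 and Nfatc3 came next and overlapped each other, Nfatc2 stood apart below them, and Nfatc4 and Rcan3 were lowest and overlapped. In the olanzapine rats Ppp3r1 and Ppp3cb stood highest with overlapping ranges, Ppp3ca and Rcan1 followed and overlapped each other, then came Rcan2, Nfatc1 and Nfatc3, whose neighboring ranges overlapped, and then Nfatc2, Nfatc4 and Rcan3, whose neighboring ranges also overlapped.

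Rcan1 FPKM over Ppp3ca FPKM was 1.62, 2.29 and 1.97 in the vehicle rats and 0.801, 0.884 and 0.794 in the olanzapine rats. Rcan1 was thus above Ppp3ca in every vehicle rat and below it in every olanzapine rat. Rcan1 over Ppp3r1 was 0.871, 1.01 and 1.07 in the vehicle rats and 0.292, 0.288 and 0.283 in the olanzapine rats. This ratio varied little among the olanzapine rats, since the rat with the most Rcan1 (rat 10) also had the most Ppp3r1 and the rat with the least Rcan1 (rat 12) had the least. Summed Rcan FPKM over summed A subunit FPKM was 0.583, 0.730 and 0.772 with vehicle and 0.286, 0.286 and 0.235 with olanzapine. These ratios are taken within a rat and are not altered by scaling it. They are built from the levels given above, so they are not evidence apart from those levels.

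**Figure D3:**
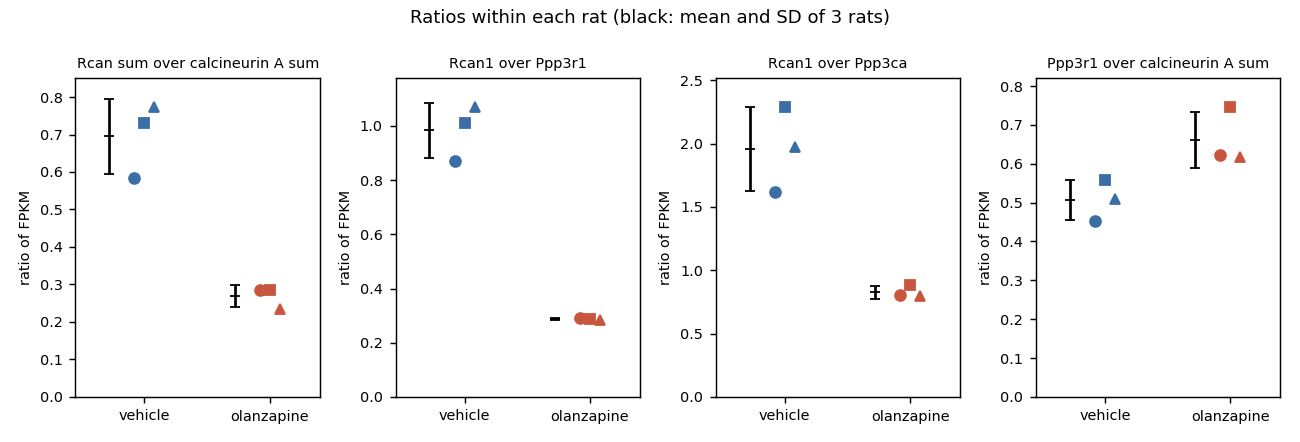
Ratios of FPKM within each rat for vehicle (blue) and olanzapine (orange), with the mean and SD of 3 rats in black and axes from 0. The 3 ratios with Rcan genes over calcineurin subunits were lower in every olanzapine rat, and the ratio of the B subunit Ppp3r1 to the summed A subunits was higher in every olanzapine rat.

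Among the NFATc factors, Nfatc1, the isoform most tied to slow fiber activity, was at 7.63, 8.60 and 10.4 FPKM in the vehicle rats and at 6.66, 8.63 and 5.20 FPKM in the olanzapine rats (chr18:76340751-76426095, Rnor_5.0). The groups overlapped through olanzapine rat 10. The log2 fold change was -0.35 with a 95% interval of -0.84 to 0.13 (limma, adjusted p = 0.488).

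Nfatc3, which is expressed alongside Nfatc1 in muscle (chr19:48906476-48980756, Rnor_5.0), was at 7.60, 7.30 and 9.39 FPKM with vehicle and at 6.72, 7.23 and 5.19 FPKM with olanzapine. The groups did not overlap, by a gap smaller than the spread within each, and they overlapped after scaling by size factors. The log2 fold change was -0.30 with a 95% interval of -0.73 to 0.12 (limma, adjusted p = 0.492).

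Nfatc2, known from T lymphocytes and growing myotubes (chr3:171384480-171500358, Rnor_5.0), was at 1.91, 1.76 and 2.75 FPKM in the vehicle rats and at 1.88, 1.64 and 0.776 FPKM in the olanzapine rats. The groups overlapped, and rat 12 stood apart at the low end. The log2 fold change was -0.39 with a 95% interval of -0.95 to 0.18 (limma, adjusted p = 0.513).

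Nfatc4 (chr15:38381668-38390744, Rnor_5.0), the fourth calcium-regulated NFAT factor, was at 0.806, 0.986 and 1.73 FPKM with vehicle and at 0.980, 1.19 and 0.547 FPKM with olanzapine. The groups overlapped, and the log2 fold change was -0.18 with a 95% interval of -0.75 to 0.39 (limma, adjusted p = 0.758). The shares of the 4 NFATc transcripts in their sum overlapped between the groups. Nfatc1 made up 43.9% ± 1.96 of their sum with vehicle and 43.9% ± 2.62 with olanzapine, and Nfatc3 made up 40.04% ± 2.02 and 41.5% ± 2.81 (SD, n = 3 each).

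The rest of the pathway was read from a list of 41 activators, partners and opposing enzymes, of which 40 were in the table and 34 were tested. Of these, 5 fell and 0 rose (limma), beside 0.457% and 0.0486% of all tested genes. Their median log2 fold change was -0.11, equal to that of all tested genes to 2 decimals. All 5 that fell belong to the partners and anchors. They were Myoz2 (calsarcin-1, which ties calcineurin to the Z-disc of slow fibers), Homer2 (a scaffold of calcium signaling that competes with calcineurin for NFAT), Lmcd1, Fhl1 and Csrp3 (LIM domain proteins reported to act with calcineurin or NFAT in heart or muscle). The group does not act in 1 direction on calcineurin. Its members include proteins known to restrain it and proteins known to favor it. The count was 1 without vehicle rat 3, 9 or 11, 2 without olanzapine rat 12 and 3 with size factors. The list was written with earlier results of these data known. The study also lists Myoz2, Fhl1 and Csrp3 among its slow or intermediate fiber genes, so the count is not independent evidence.

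Myoz2 was at 721, 559 and 435 FPKM in the vehicle rats and at 198, 70.1 and 77.0 FPKM after olanzapine (limma, log2 fold change -2.44, adjusted p = 0.0419). Its fast fiber counterpart Myoz1, calsarcin-2, was at 1513, 1568 and 983 FPKM with vehicle and at 1838, 2410 and 3033 FPKM with olanzapine. The groups did not overlap for Myoz1, but its adjusted p from limma was 0.255. The study, whose test has no term for rats, reported Myoz1 as significantly higher. It proposes increased calcineurin and NFAT signaling tied to Myoz1 as a potential mechanism, which was not tested here. Myoz1 held 70.3% ± 3.10 of the sum of the pair in the vehicle rats and 94.99% ± 4.09 in the olanzapine rats (SD, n = 3 each), without overlap between the groups.

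Homer2 was at 20.7, 16.5 and 17.3 FPKM with vehicle and at 4.92, 4.84 and 5.59 FPKM with olanzapine (log2 fold change -1.65, limma, adjusted p = 0.00672), and it stayed called in all 6 fits with 1 rat left out. Lmcd1 was at 118.5, 128 and 129 FPKM with vehicle and at 32.5, 38.5 and 18.1 FPKM with olanzapine (log2 fold change -2.11). Fhl1 was at 1909.9, 1880.1 and 1948 FPKM with vehicle and at 686, 384 and 401 FPKM with olanzapine, and Csrp3 was at 351, 591 and 316 FPKM and at 95.7, 104 and 52.9 FPKM. The other 4 of these 5 genes lost their call in at least 1 of those fits, and Myoz2 kept it in 1, Lmcd1 in 3, Fhl1 in 2 and Csrp3 in 2 of 6.

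The calmodulins carry the calcium signal to calcineurin. Calm3 was at 202, 222 and 157 FPKM in the vehicle rats and at 322, 329 and 377 FPKM in the olanzapine rats, with a log2 fold change of 0.83 that missed the threshold (limma, adjusted p = 0.139). The row with the symbol Calm2 was at 54.8, 64.7 and 59.6 FPKM with vehicle and 49.5, 62.6 and 45.9 FPKM with olanzapine, and its groups overlapped. That row is a locus of only 1112 bases on chromosome 15, beside 8641 bases for Calm3. Whether it measures the Calm2 gene or a copy of it was not tested. None of the 10 tested kinases that oppose calcineurin on NFAT was called, with adjusted p-values from limma of 0.333 to 0.984 and 1 of them lower and 1 higher at an unadjusted p under 0.05, beside 9.45% and 3.79% of all tested genes. The one among them without overlap, beside 5.12% of all tested genes higher without overlap, was Mapk14 (p38 alpha), which was at 24.8, 30.8 and 25.3 FPKM with vehicle and 35.1, 34.6 and 35.1 FPKM with olanzapine (log2 fold change 0.37, limma, adjusted p = 0.376).

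The 5 tested calcium entry and release genes were not called, with adjusted p-values from limma of 0.712 to 0.926 and 0 of them at an unadjusted p under 0.05. Ryr1, the calcium release channel, was at 112, 124 and 167 FPKM with vehicle and 126, 142 and 108 FPKM with olanzapine, and Cacna1s, its voltage sensor, had a log2 fold change of -0.05. Fkbp1a, the immunophilin through which tacrolimus blocks calcineurin, was at 77.0, 90.6 and 79.3 FPKM with vehicle and 90.7, 98.0 and 109 FPKM with olanzapine (log2 fold change 0.27, limma, adjusted p = 0.493).

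A list of 23 genes described as responsive to calcineurin or NFAT in muscle included 9 of the slow fiber program. Of its 20 tested genes, 8 fell and 0 rose (limma), beside 0.457% and 0.0486% of all tested genes. The median log2 fold change was -0.94, beside -0.11 for all tested genes. Of the 8, 7 were of the slow program, among them Myh7 (slow myosin heavy chain, -3.22), Atp2a2 (the slow calcium pump, -2.99) and Casq2 (slow calsequestrin, -2.70), as log2 fold changes. The median of the 9 slow genes was -2.46. The study sorted its slow fiber genes by literature and database annotation and reported them from these same rats. It also found Tnni1, Casq2 and Atp2a2 lower by quantitative PCR on the same RNA. The list here was written with earlier results of these data known, so the count of 8 is not independent evidence. Of the list, 1 fell without vehicle rat 3, 9 or 11 or olanzapine rat 12, 3 fell without olanzapine rat 10, and 4 fell with size factors.

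Outside the slow program as listed here, 1 of 11 tested genes fell (limma), beside 0.457% of all tested genes. It was Myog (myogenin), at 29.3, 22.5 and 23.3 FPKM with vehicle and 10.5, 12.4 and 11.7 FPKM with olanzapine (log2 fold change -1.05, limma, adjusted p = 0.0460). Its call was lost in each of the 6 fits with 1 rat left out. The study itself places Myog, and Atp1b1 below, among slow or intermediate fiber genes. Atp1b1, a sodium pump subunit, was at 102, 67.8 and 142 FPKM with vehicle and 41.4, 33.6 and 21.6 FPKM with olanzapine (adjusted p from limma 0.0773). Mef2c, a muscle transcription factor that calcineurin acts on, and Slc2a4, the insulin-responsive glucose transporter, had log2 fold changes of -0.02 and 0.02. Il6 was listed at 0 in every rat, which, as for Col1a2 above, need not mean absence.

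**Figure D4:**
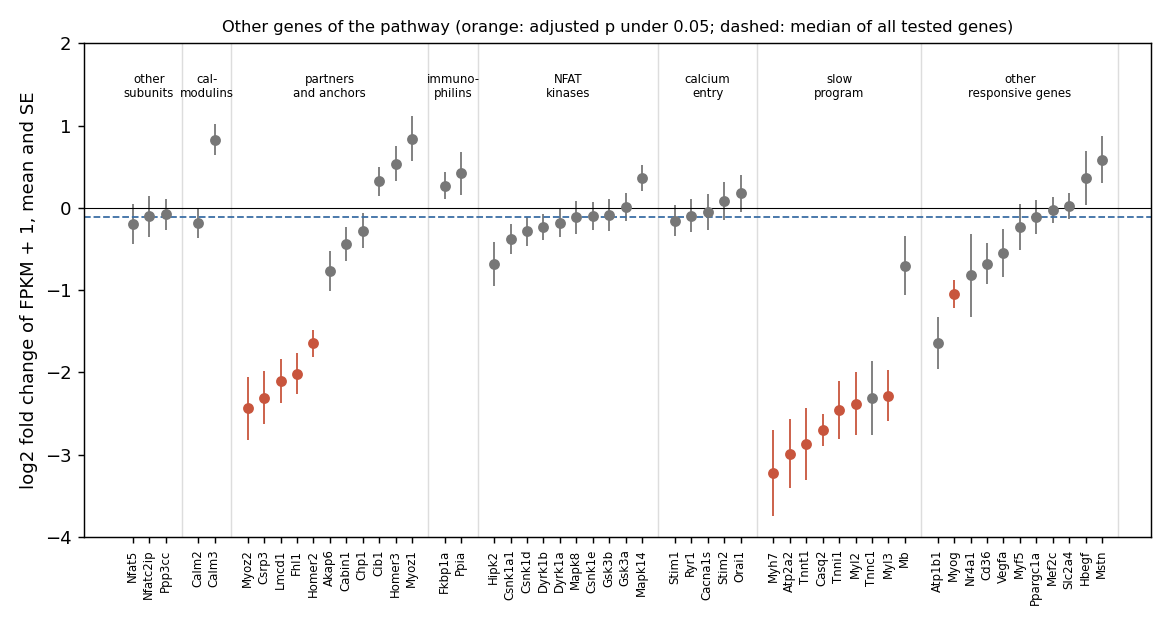
Log2 fold change (of FPKM + 1) and its standard error for other tested genes of the pathway by list, with orange points at an adjusted p under 0.05 from limma. The calls lie among the partners and anchors (5 genes), the slow program (7 genes) and the other responsive genes (Myog), and 0 lie among the subunits, calmodulins, immunophilins, kinases and calcium entry genes.

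Rcan1 and Rcan2 were set beside the slow myosin gene Myh7 rat by rat. As a percent of the vehicle mean Rcan1 was at 40.04, 48.5 and 30.9% in olanzapine rats 4, 10 and 12, and Rcan2 was at 61.5, 38.7 and 26.7%. Myh7 was at 26.5, 4.68 and 9.26% in the same rats. Olanzapine rat 10 therefore had the most Rcan1 and the least Myh7 of its group. The order depended on the gene chosen. Tnni1 and Atp2a2 were also lowest in rat 10, whereas Casq2 was lowest in rat 12, at 10.9%. Lmcd1 followed the order of Rcan1, at 25.9, 30.7 and 14.4% in rats 4, 10 and 12. These genes were set beside each other after their values had been seen, and the difference in order was not tested.

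**Figure D5:**
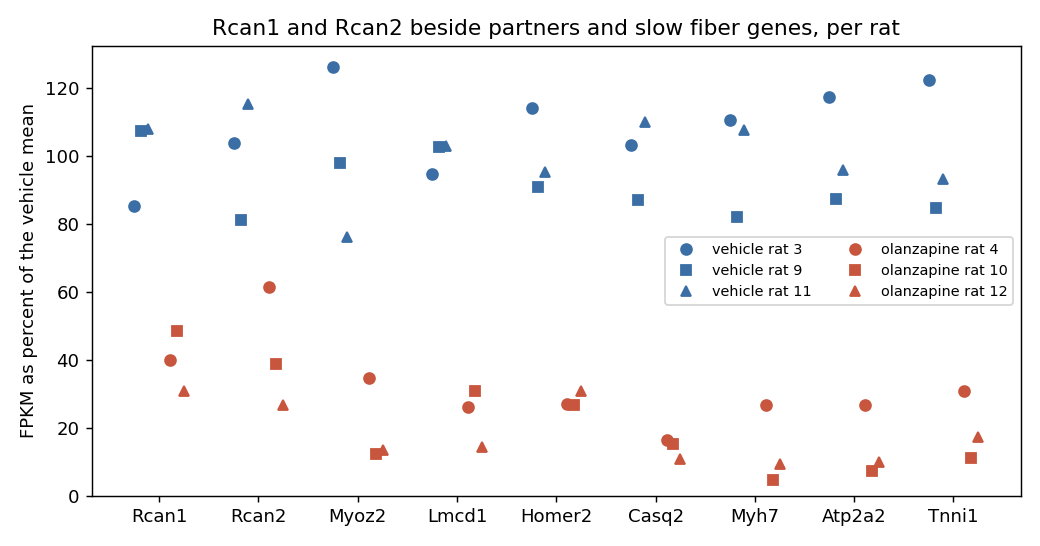
FPKM of 9 genes in each rat as a percent of the vehicle mean, with axes from 0, vehicle rats in blue and olanzapine rats in orange. Rcan1 lies at 30.9 to 48.5% in the olanzapine rats and Rcan2 at 26.7 to 61.5%, while Myh7 lies at 4.68 to 26.5%.

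The genes with the pattern most like each member without overlap were sought among tested genes that averaged 10 FPKM or more, by Pearson r of log2(FPKM + 1) over the 6 rats, which share the libraries and the split into groups. For Rcan1 they were Apobec2 (r = 0.996), Sdpr (r = 0.994) and Lmcd1 (r = 0.990). Apobec2, a muscle protein of the cytidine deaminase family, was at 462, 588 and 567 FPKM with vehicle and 295, 331 and 232 FPKM with olanzapine. For Rcan2 they included Unc45b, a myosin chaperone (r = 0.996), and Pxn, the focal adhesion protein paxillin (r = 0.995). For Ppp3r1 they were Kcnj12, an inward rectifier potassium channel (r = 0.974), Ostf1 (r = 0.973) and Eno3, muscle enolase (r = 0.966). Nfatc3 was closest to Copb2 (r = 0.995), Midn (r = 0.992) and Apitd1 (r = 0.987). All of these were picked for the highest r among 3936 genes over 6 rats, on values not scaled by size factors. A high r was therefore favored by the search, and none was tested.

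The table gives 1 value per gene, so the transcripts of Rcan1 from different starts cannot be told apart. The locus of Rcan1 in the table spans 10327 bases, less than RefSeq annotates on GRCr8, and whether transcripts from a start further upstream were counted was not tested.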

How the data were processed

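Gastrocnemius poly(A) RNA of 3 vehicle and 3 olanzapine rats was sequenced. Per the labels, the authors processed reads with CASAVA 1.8.2, aligned them to Rnor_5.0 with TopHat 2.0.9 and computed the deposited FPKM per gene with Cufflinks 2.2.1 from uniquely mapped reads. Reads shared by near-identical copies are therefore not in the values. Counts and read totals were not analysed here. The authors' columns of group means, fold changes and significance were not used. Rats carry their own numbers and were taken as the replicates.

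FPKM were compared as log2(FPKM + 1) with limma 3.58.1 (R 4.3.3, empirical Bayes with trend) over the 10285 genes that averaged 1 FPKM or more, two-sided, with Benjamini-Hochberg adjustment over all of them and calls at an adjusted p under 0.05. Fold changes on this scale understate those of low genes. The study used a likelihood ratio test (DEGseq) with no term for rats. A Poisson likelihood ratio test on group sums, written here in its place, was an alternative, beside other pseudocounts, filters and scalings and leaving out each rat. The fit was tested on simulated data with independent noise and no difference in scale between libraries. That simulation does not bear on how the calls depend on scaling. Named were the members, the genes of the other lists that passed, up to 5 per list with the largest change without overlap, the 3 most abundant per list, and the 3 nearest patterns, of which 2 genes are not reported here. Members and lists were chosen with earlier results of these data known. Promoter sequences are from RefSeq (GRCr8).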

Additional observations from a re-analysis of the deposited data

How the results depend on the processing

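No paired analysis was possible because no rat number in the labels occurs in both groups, and the labels pair no rats. Over all tested genes, 47 fell and 5 rose. With no filter on low values 18 fell and 9 rose, with median-ratio size factors 28 fell and 3 rose, and by the Poisson likelihood ratio test on group sums, which treats FPKM as counts and has no term for rats, 411 fell and 404 rose. The count that rose was 11 when genes under 10 FPKM on average were left out and 8 with the same total FPKM. With 1 rat left out, 8 to 55 fell and 3 to 7 rose. The number of members that fell, 1 in the report, was 0 with no filter, size factors, the same total, the same total taken without the 50 most abundant genes or no trend in the variance, 0 with any rat left out, and 2 by the Poisson test. The adjusted p of Rcan1 ran from 0.0145 to 0.154 over the limma alternatives. Of the regulators and partners, 3 fell with no filter, 3 with size factors and 1 to 5 with 1 rat left out, and 2 rose by the Poisson test. Of the responsive genes, 1 fell with no filter, 4 with size factors, 13 by the Poisson test and 1 to 8 with 1 rat left out. The median log2 fold change of the members ran from -0.39 to -0.17 with 1 rat left out.

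Some log2 fold changes near 0 turned sign. Size factors gave 0.0600 for Ppp3ca, 0.0878 for Ppp3cc, 0.122 for Cacna1s, 0.0806 for Ryr1 and 0.149 for Mef2c. The same total gave -0.0374 for Gsk3a and -0.0252 for Slc2a4, and the Poisson test gave -0.0471 and -0.0313 for these. With 1 rat left out Ppp3ca ran from -0.208 to 0.0287, Ppp3cc from -0.197 to 0.0781, Gsk3a from -0.103 to 0.0713, Cacna1s from -0.231 to 0.135, Ryr1 from -0.213 to 0.0728, Mef2c from -0.0824 to 0.0319 and Slc2a4 from -0.0410 to 0.0596. The cause was not tested. FPKM carry no read totals, so the counting error of the low members (Nfatc2, Nfatc4 and Rcan3) is unknown.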
